A study of Homo sapiens with 6 samples.

Results

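The transcriptome that RKO cells had after transfection with a control siRNA (siCtrl), before any knockdown is considered, was described by the absolute level of each gene. A gene was taken as present at this baseline when its mean over the 3 siCtrl samples was at least 1 FPKM (fragments per kilobase of transcript, scaled to the number of mapped fragments, so a level corrected for gene length and depth). Of the 61204 entries of the table, 14041 (22.94%) passed, and 12982 of them reached 1 FPKM in every sample. RKO is an established human colorectal cancer cell line, labelled as wild type for ANP32B. The series holds 3 samples transfected with siANP32B and 3 with siCtrl, each with 100 pmol of siRNA and, as the methods give for siRNA transfections in general, collected after about 48 to 72 h. Only the siCtrl samples were used here. The labels do not say whether they came from separate cultures, so the spread between them may be technical. Untransfected cells are not among the samples, so a level set by the transfection itself cannot be told apart from that of the cell line, and the values describe 1 line and no normal colon.

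The colonic epithelium renews from stem cells at the crypt base, which depend on WNT signalling, and its cells mature into absorptive colonocytes, mucus-secreting goblet cells and hormone-secreting enteroendocrine cells. Transcription factors of the CDX, HNF and GATA families keep the intestinal programme on, and keratins, cadherins and claudins give the epithelium its form. Colorectal cancers can lose parts of this programme, and a group of them carries dense DNA methylation at CpG-rich promoters.

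The samples held 18987041, 14304093 and 15192893 fragments in siCtrl 1, 2 and 3, as recovered from the steps of the FPKM values, so siCtrl 1 was the deepest. In a transcript of 1 kilobase, 1 fragment corresponded to 0.0527, 0.0699 and 0.0658 FPKM in these samples. Means under 0.1 FPKM therefore rest on a few fragments, and for such genes the 3 values are given rather than a mean. An exact 0 is reported as listed at 0, since genes that every cell uses were also listed at 0. Among these were EEF1G, a subunit of the elongation factor complex, and MRPL53, a mitochondrial ribosomal protein, which were chosen after their values were seen. Another gene covers 99.9% of the exon bases of EEF1G. Of the 1102 protein-coding genes that share 50% or more of their exon bases with another gene, 58.6% were listed at 0 in all 3 samples and 15.1% reached 1 FPKM. Of the 2894 that share 10% to 50%, 14.6% were listed at 0 and 67.4% reached 1 FPKM, and of the 15907 that share under 10%, 25.4% were listed at 0 and 56.6% reached 1 FPKM, so only the most shared class had the low share.

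Protein-coding genes made up 79.16% of the genes present, 11115 of the 19903 in the annotation (55.85%). They held 96.4% of the summed FPKM. The counts of the gene lists below can be set beside the 55.85%. At the other end, 7059 protein-coding genes (35.47%) had a mean under 0.1 FPKM, and 5115 of these were listed at 0 in all 3 samples. The median over the genes present was 16.2 FPKM. Most of the 14041 lay between 10 and 100 FPKM, with 7144 entries, while 5560 lay between 1 and 10, 1271 between 100 and 1000, and 66 at 1000 or over. These 66 entries held 20.04% of the summed FPKM. Long non-coding and antisense RNAs contributed 1429 of 15878 entries and 1.595% of the summed FPKM, and pseudogenes 826 of 15173 entries and 1.248%. Just above the threshold lay POU5F1B (0.982, 0.835 and 1.19 FPKM), AL157786.1 (0.994, 0.769 and 1.24 FPKM) and C3orf33 (1.07, 0.783 and 1.15 FPKM). Just below it lay SELENOKP1 (1.11, 0.736 and 1.15 FPKM), AC026740.1 (1.46, 0.619 and 0.915 FPKM) and PLEKHH2 (0.659, 1.31 and 1.03 FPKM). Each of these 6 genes had samples on both sides of 1 FPKM.

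**Figure D1:**
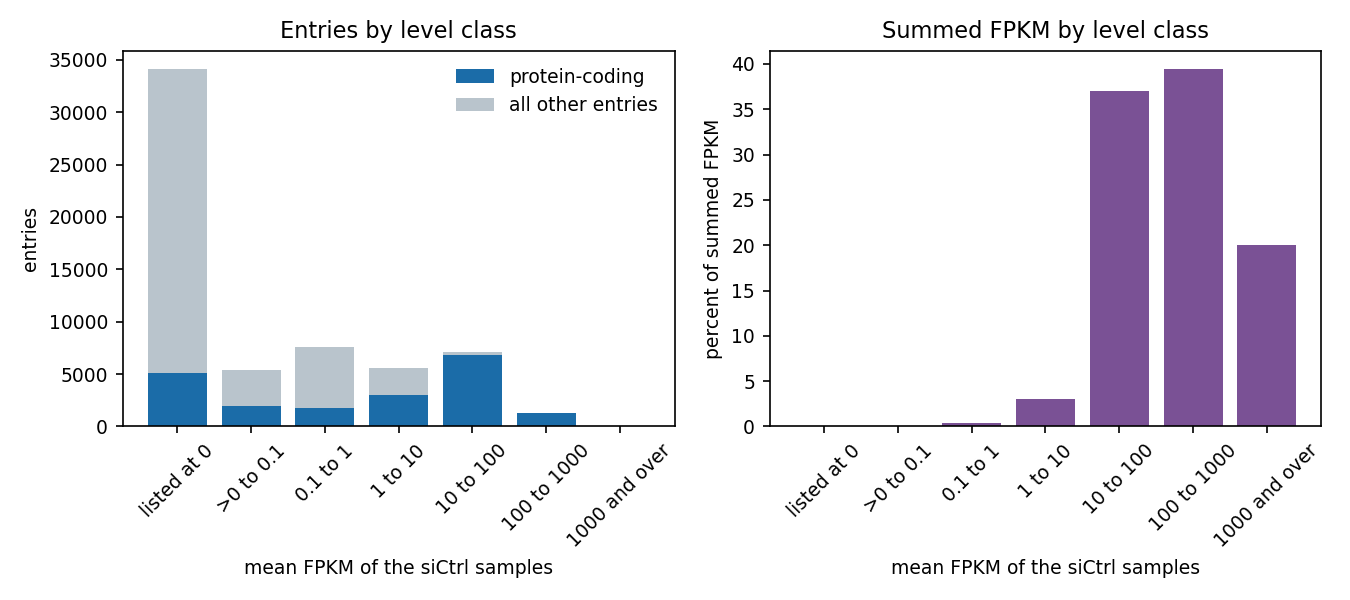
Entries (left, count) and percent of the summed FPKM (right) by level class, from the mean of the 3 siCtrl samples. The largest class is the 34160 entries listed at 0, whereas the 66 entries at 1000 FPKM or over, too few to be seen on the left, hold 20.04% of the summed FPKM.

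The 3 samples resembled each other closely at high levels and less so near the threshold. The median coefficient of variation (SD divided by mean) was 16.4% for entries between 1 and 10 FPKM, 5.48% between 10 and 100, 3.45% between 100 and 1000 and 3.90% at 1000 or over. Over the 8134 protein-coding genes of at least 10 FPKM, the median absolute log2 ratio of 2 samples was 0.09 between siCtrl 1 and siCtrl 2, 0.08 between siCtrl 1 and siCtrl 3, and 0.08 between siCtrl 2 and siCtrl 3, and 11, 10 and 1 of these genes were over 2-fold apart. The steadiest gene of at least 10 FPKM was TARS1, which encodes the cytosolic threonyl-tRNA synthetase, with 352, 352 and 353 FPKM. DUSP5, a phosphatase that acts on the kinase ERK, had 188, 188 and 189 FPKM. TFG, PATL1, USP9X, HID1, ZDHHC6, TIMMDC1 and CHMP5 were also among the 10 genes of smallest variation, and these 7 had coefficients of 0.0808% to 0.192%.

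The highest transcripts belonged to respiration and to protein synthesis. Among the mitochondrially encoded genes, MT-CO1, the catalytic subunit of cytochrome c oxidase, had 8635, 8645 and 9005 FPKM and was the highest gene of all. MT-CO2, another subunit of the same enzyme, had 5898, 6550.3 and 6489 FPKM. MT-CO3, the third mitochondrially encoded subunit, had 4805, 5362 and 5289 FPKM. MT-ND4 of complex I followed with a mean of 4600.1 ± 119.8 FPKM (SD, n = 3, here and below) and MT-ATP6 of the ATP synthase with 3602 ± 74.5 FPKM. All 13 mitochondrially encoded proteins were present and together held 5.66% ± 0.181 of the summed FPKM, and the lowest of them was MT-ATP8 at 51.2 ± 4.67 FPKM.

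Among nuclear genes, EEF1A1, which brings aminoacyl-tRNAs to the ribosome, was first with 6531, 6991 and 6706 FPKM. The ribosomal protein gene RPL8 had 4177, 4489 and 4415 FPKM. EEF2, the factor that moves the ribosome along the mRNA, had 3886, 4093 and 3987 FPKM. ITGB1, the integrin β1 subunit that binds cells to the extracellular matrix, had 3922, 3951 and 3838 FPKM and was, by FPKM, the highest nuclear gene outside protein synthesis. EEF1A1 and RPL8 lay apart from each other and from the next genes, while the ranges of EEF2 and ITGB1 overlapped. In all, 13 of the 19 pairs of neighbours in the order of the 20 highest nuclear genes overlapped, so most places in that order are not set beyond the spread between samples. Of these 20 genes, 13 are ribosomal proteins (RPL8, RPL3, RPL7A, RPLP0, RPL7, RPS2, RPS18, RPL4, RPL13A, RPL35, RPLP2 and RPS3) or RACK1, a protein of the small ribosomal subunit, and EEF1A1, EEF2 and the poly(A)-binding protein PABPC1 also serve translation. The 4 others were ITGB1, FTL, the light chain of the iron store ferritin, at 2469.8 ± 216 FPKM, HMGA1, a chromatin protein that binds AT-rich DNA, at 2146 ± 58.05 FPKM, and PSMD2, a subunit of the regulatory particle of the proteasome, at 1668 ± 17.7 FPKM.

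**Figure D2:**
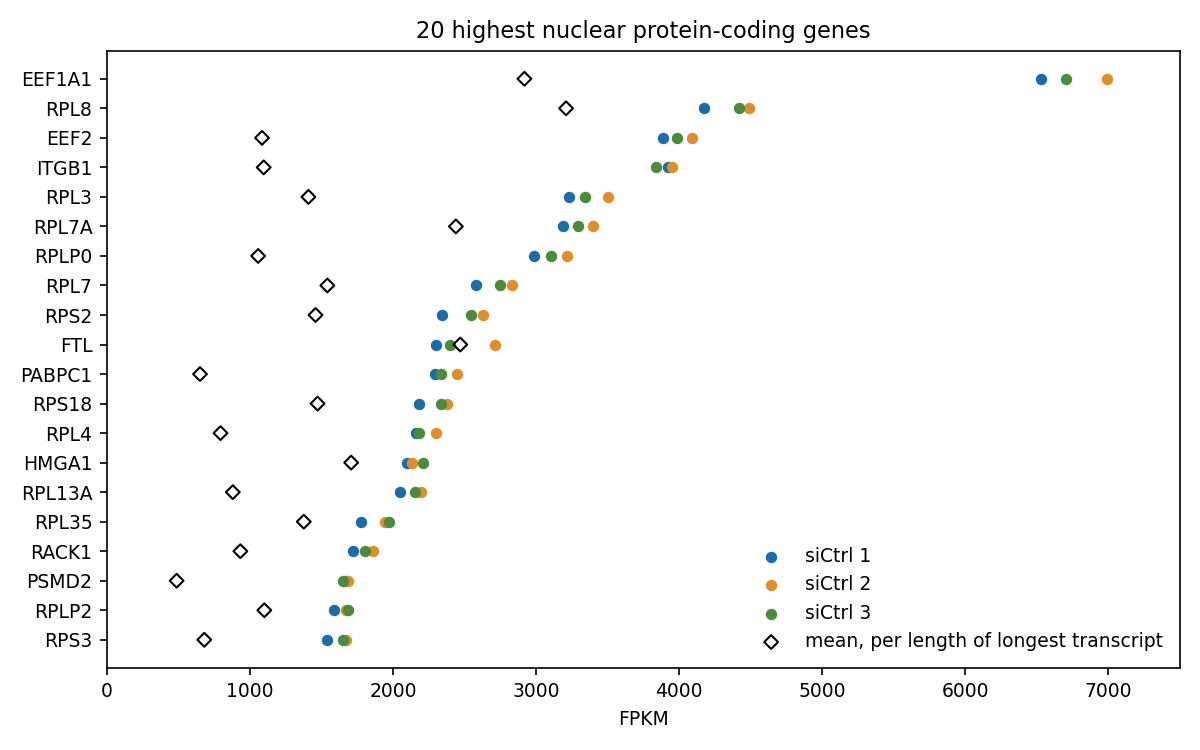
FPKM (linear axis) of the 20 highest nuclear protein-coding genes in siCtrl 1, 2 and 3 (filled points), with the mean when counted per length of the gene's longest transcript (open diamonds). ITGB1 falls to 1095 and PSMD2 to 487 on the second scale, and RPL8 is then the highest of the 20.

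The level of a gene depends on the length that it is divided by. The deposited values accounted for 98.3% to 98.4% of the fragments when multiplied by the mean length of a gene's annotated transcripts, and for 241% to 242% with the longest transcript, so a gene with many short annotated transcripts has a raised FPKM. When levels were instead set per length of the longest transcript, ITGB1 had 1095, PSMD2 487, EEF1A1 2918 and RPL8 3209. RPL8 was then above EEF1A1, and FTL (2469.8) and HMGA1 (1707) were above ITGB1. Of the 20 highest nuclear genes, 15 stayed among the 20 highest, and 81 of the 100 highest stayed among the 100 highest.

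Ribosomal protein genes as a group held 11.4% ± 0.341 of the summed FPKM, with 80 of 84 present and a median of 762 FPKM over those present. The 4 others included RPL10L and RPL39L, which were listed at 0, and RPL3L at 0.261 FPKM. RPL3L, RPL10L and RPL39L are copies that other tissues use. Of 18 genes of glycolysis 17 were present, led by ENO1 (enolase) at 1379.6 ± 30.3 FPKM, GAPDH at 986 ± 34.1 FPKM and TPI1 (triosephosphate isomerase) at 646 ± 22.8 FPKM. Within this pathway, LDHA, a subunit of lactate dehydrogenase, had 432, 397 and 419 FPKM, against 1.29, 1.63 and 1.62 FPKM for LDHB, the other main subunit, of which 33.4% of the exon bases are shared with another gene. Of the aldolases, ALDOC had a mean of 27.4 FPKM and ALDOA, the one that most tissues use, 2.29 FPKM, but another gene covers 53.5% of the exon bases of ALDOA and its level is uncertain. Of 50 proteasome subunit genes 48 were present, and of 71 initiation and elongation factors 63.

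Annotated transcripts that do not encode proteins were ranked without pseudogenes, mitochondrial RNAs and genes whose longest transcript is under 300 bases. The highest were GAS5, a host of small nucleolar RNAs, at 618 ± 23.8 FPKM, and CASC19, a long non-coding RNA near MYC on chromosome 8, at 532 ± 22.8 FPKM. LUCAT1 came next at 336 ± 25.4 FPKM. The small nucleolar RNA hosts SNHG6 and SNHG29 averaged 218 and 218 FPKM. MALAT1, a nuclear long non-coding RNA, had 215, 218 and 211 FPKM. The pseudogenes RPL13P12, RPS2P5, MTATP6P1 and AL450405.1 were in the same range, between 185 and 443 FPKM on average, and reads of such copies may belong to their parent genes. Per length of the longest transcript, CASC19 had 119 and MALAT1 31.4.

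Transcription factors of the intestine were partly present, with 10 of 22 at 1 FPKM or over (45.5%, against 55.85% of all protein-coding genes) and none at 100 FPKM or over. KLF5, a factor of dividing crypt cells, was the highest with 23.4, 20.4 and 21.9 FPKM. CDX2, the homeobox factor that specifies the intestine, had 10.2, 11.3 and 11.9 FPKM. Both lay around the median of 16.2 FPKM of the genes present. KLF4 averaged 11.2 ± 0.426 FPKM, FOXA1 9.32 ± 1.35 FPKM, GATA4 8.46 ± 1.74 FPKM, the vitamin D receptor VDR 7.96 ± 0.567 FPKM, HNF4G 6.204 ± 0.231 FPKM, GATA6 4.14 ± 0.226 FPKM and PDX1, best known from duodenum and pancreas, 2.84 ± 0.581 FPKM. The ranges of KLF4 and CDX2 overlapped, as did those of GATA4 and VDR.

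Other regulators of the intestine were under 1 FPKM or listed at 0. HNF4A and FOXA2 were listed at 0 in every sample. CDX1, the paralog of CDX2, had 0, 0.135 and 0 FPKM. SOX9, a factor of crypt progenitors, had 0.362, 0.1601 and 0.352 FPKM. ATOH1, which commits cells to the secretory lineage, had 0, 0 and 0.0298 FPKM, and ELF3, a factor of epithelial maturation, had 0.104, 0 and 0 FPKM. Less than 30% of the exon bases of each of these 6 genes are shared with another gene.

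Of 31 genes of mature colonocytes, 3 were present (9.68%) and 20 had a mean under 0.1 FPKM, 14 of them listed at 0. Those present were CA2, a carbonic anhydrase, with 39.5, 32.6 and 38.8 FPKM, the sulfate transporter SLC26A2 with 20.9, 17.7 and 18.7 FPKM, and USH1C, which encodes the microvillus protein harmonin, with 1.53, 1.09 and 1.56 FPKM. The defining genes VIL1 (villin), KRT20 and the chloride exchanger SLC26A3 had 0.0949, 0 and 0 FPKM, 0, 0 and 0.125 FPKM and 0, 0.0966 and 0.136 FPKM, and the fatty acid binding protein FABP1, the cadherin CDH17 and the surface antigens CEACAM5 and CEACAM6 were listed at 0. Summed over the list, the level was 63.1 in siCtrl 1, 53.8 in siCtrl 2 and 61.7 in siCtrl 3, most of it from CA2 and SLC26A2.

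Of 25 genes of goblet and enteroendocrine cells, MUC1, a membrane mucin of many epithelia, had 2.33, 2.82 and 2.07 FPKM, SYP (synaptophysin) had 1.401, 1.16 and 1.86 FPKM, and the other 23 stayed under 1 FPKM. MUC2, the main mucin of goblet cells, the trefoil factors TFF1 and TFF3, AGR2, which folds mucins, and the enteroendocrine genes CHGA and NEUROG3 were all listed at 0, as were 18 genes of the list in all. Per length of the longest transcript, MUC1 had 0.587 and SYP 0.715, and no gene of the list reached 1.

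Genes of crypt stem cells and of WNT signalling were present for 13 of 22 (59.1%, close to the 55.85% of all protein-coding genes). CD44, a hyaluronan receptor, had 219, 216 and 223 FPKM, and 41.4 on average per length of its longest transcript. CTNNB1 (β-catenin), the transcriptional mediator of WNT, had 153, 166 and 159 FPKM. The DNA-binding partners of β-catenin were present too, TCF7 at 35.1 ± 1.92 FPKM, LEF1 at 23.3 ± 0.223 FPKM and TCF7L2 at 22.9 ± 0.856 FPKM, with overlapping ranges for LEF1 and TCF7L2. APC, which directs β-catenin to degradation, averaged 21.96 ± 1.27 FPKM. Of other genes that WNT signalling is known to induce, EPHB2 averaged 11.6 ± 0.855 FPKM, ZNRF3 5.68 ± 0.5395 FPKM, NOTUM 3.97 ± 0.616 FPKM, AXIN2 3.21 ± 0.774 FPKM, NKD1 2.86 ± 0.613 FPKM and SP5 1.92 ± 0.524 FPKM. The stem cell receptor LGR5 had 0, 0 and 0.0526 FPKM, and the stem cell genes ASCL2 and OLFM4 and the WNT inhibitor APCDD1 were listed at 0. RNF43, a ubiquitin ligase that removes WNT receptors, had 0.0712, 0.0709 and 0 FPKM, but another gene covers 73.9% of its exon bases and its level is uncertain.

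Of the genes that give an epithelium its form, the keratins were few. In the whole family 5 of 55 were present. KRT18 had 40.7, 38.2 and 42.8 FPKM, and KRT8, with which it pairs in simple epithelia, had 11.1, 13.4 and 12.1 FPKM. KRT10, a keratin of stratified epithelium, had 23.5, 31.6 and 33.3 FPKM. KRT15 averaged 3.604 ± 0.201 FPKM and KRT79 1.92 ± 0.269 FPKM. KRT19, usual in intestinal epithelium, was listed at 0, and KRT7 had 0.266, 0 and 0 FPKM.

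Junction genes were more often present, with 19 of 34 (55.9%), close to the 55.85% of all protein-coding genes. CLDN12, a claudin of tight junctions, had 269, 274 and 263 FPKM, and 76.2 on average per length of its longest transcript. SPINT1, a membrane inhibitor of serine proteases, had 110.5, 111 and 117 FPKM. Of the desmosomal proteins, PKP3 (plakophilin) averaged 65.3 ± 5.200 FPKM, and DSG2 (desmoglein) had 57.3, 53.5 and 54.3 FPKM. LSR, a protein of tricellular junctions, averaged 44.1 ± 4.05 FPKM, the epithelial splicing regulator ESRP2 40.1 ± 2.55 FPKM, its paralog ESRP1 1.24 FPKM, and the tight junction scaffold TJP1 33.7 ± 4.56 FPKM. EPCAM, the surface antigen used to define epithelial cells, had 15.7, 16.8 and 19.1 FPKM. CDH1 (E-cadherin), the main adhesion protein of epithelia, had 0.0237, 0 and 0 FPKM, which puts it below 1 fragment per kilobase in each sample. GRHL2, a regulator of epithelial identity, was listed at 0, and CLDN1, CLDN4 and ST14 averaged under 0.1 FPKM. Only 3 of 24 claudins were present, CLDN12, CLDN15 at 29.7 ± 2.47 FPKM and CLDN3 at 1.76 ± 0.294 FPKM. Integrins counted 11 of 27 symbols, which include the integrin-like gene ITGBL1. After ITGB1 came ITGA5, its partner in the fibronectin receptor, with 426, 436 and 443 FPKM, ITGA3, its partner in a laminin receptor, at 128 ± 1.104 FPKM, ITGB5 at 105 ± 4.04 FPKM and ITGAV at 59.8 ± 4.11 FPKM. ITGAX followed with 54.5, 56.9 and 50.8 FPKM, a range that overlapped that of ITGAV. It was named after its values were seen and is not on the list of immune markers below.

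Mesenchymal genes counted 11 of 28 (39.3%, against 55.85% of all protein-coding genes). AXL, a receptor tyrosine kinase, had 302, 325 and 304 FPKM, and ZEB1, a repressor of epithelial genes, had 152, 153 and 144 FPKM. These 2 stood far above the rest of the list. TAGLN, an actin-binding protein of smooth muscle, averaged 38.2 ± 1.91 FPKM, COL6A1 26.7 ± 1.65 FPKM and SNAI1, another repressor of epithelial genes, 6.299 ± 0.696 FPKM. VIM (vimentin), the intermediate filament of mesenchymal cells, had 4.15, 5.303 and 3.46 FPKM. CDH2 (N-cadherin) had 0.0384, 0 and 0.02399 FPKM, so neither of the main cadherins reached 1 FPKM. ZEB2 had 0, 0.0199 and 0.0374 FPKM, and TWIST1, TWIST2, COL1A2, COL3A1 and DCN were listed at 0. Per length of the longest transcript 7 of the 28 reached 1.

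**Figure D3:**
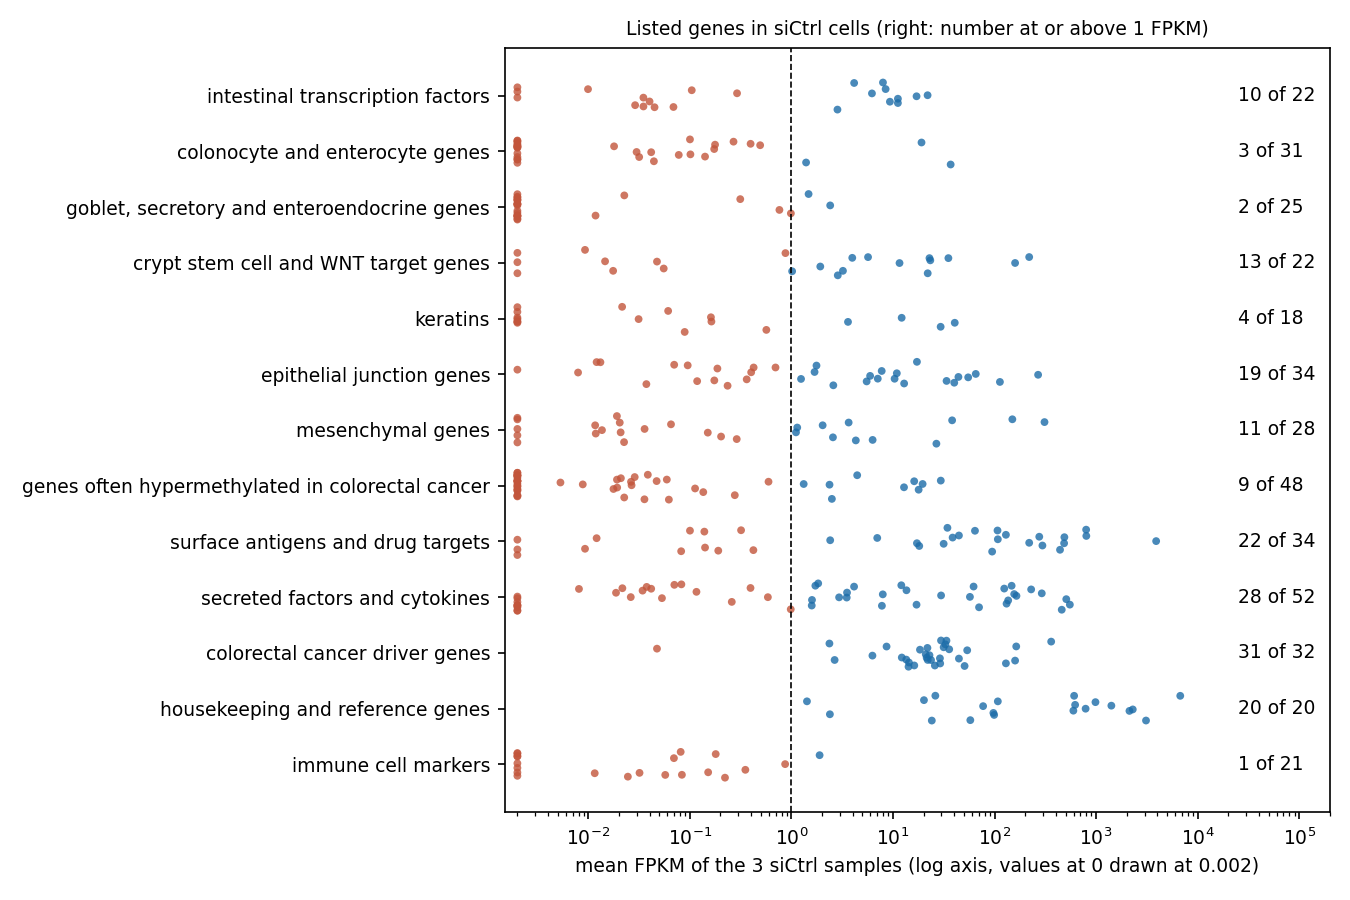
Mean FPKM over the 3 siCtrl samples (log axis) of the members of 13 gene lists, 1 point a gene, blue at or above 1 FPKM and red below it, with genes at 0 drawn at the left edge. Colonocyte, goblet cell and immune genes lie mostly left of the threshold (3 of 31, 2 of 25 and 1 of 21 present), and all 20 housekeeping genes lie right of it.

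Homeobox genes of the HOX clusters, which mark position along the body axis, were present for 26 of 39, against 55.85% of all protein-coding genes. The HOXB cluster on chromosome 17 had 9 of 10 and a summed level of 106 FPKM, HOXA on chromosome 7 had 7 of 11 and 64.0 FPKM, HOXC on chromosome 12 had 6 of 9 and 21.6 FPKM, and HOXD on chromosome 2 had 4 of 9 and 15.3 FPKM. HOXA9 had 24.4, 28.3 and 29.2 FPKM, HOXB9 24.6, 25.4 and 28.9 FPKM and HOXB2 22.4, 23.2 and 21.03 FPKM. In FPKM, HOXA9 and HOXB9 overlapped, and HOXB2 lay below both. Per length of the longest transcript, HOXB9 had 26.3, HOXB2 14.8 and HOXA9 13.5, so this order depends on the length used. HOXB3 and HOXB7 averaged 17.9 and 17.4 FPKM.

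Markers of other cells and organs were mostly under 1 FPKM. Of 21 immune and blood cell markers only CD8A passed, with 1.85, 1.92 and 1.91 FPKM, the list summed to 3.75, 4.45 and 3.87 FPKM in siCtrl 1, 2 and 3, and the leukocyte marker PTPRC, the T cell genes CD3D and CD3E, the B cell gene MS4A1 and the globin HBB were listed at 0. Of 18 endothelial, fibroblast and muscle markers 4 passed, COL1A1 at 3.66 ± 0.726 FPKM, RGS5 at 2.78 ± 0.8995 FPKM, CNN1 at 1.21 ± 0.1997 FPKM and ACTA2 at 1.11 ± 0.214 FPKM. The list summed to 9.29, 8.89 and 11.2 FPKM. Of 26 markers of other organs, MITF, a regulator of pigment cells, had 11.2, 13.2 and 13.4 FPKM, the kidney factors PAX2 and PAX8 averaged 3.76 ± 0.291 FPKM and 2.63 ± 0.351 FPKM, and PMEL, a pigment cell protein, 3.52 ± 0.592 FPKM, while 15 were listed at 0, among them albumin (ALB), the lung factor NKX2-1 and the basal cell factor TP63. Of 16 neural and germ cell markers NES (nestin) averaged 6.02 ± 0.488 FPKM and SYP 1.47 ± 0.355 FPKM, and the pluripotency gene NANOG was listed at 0.

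Genes that are often hypermethylated in colorectal cancer were seldom present. Of 48, 9 reached 1 FPKM (18.8%), 35 had a mean under 0.1 FPKM and 20 of these were listed at 0. Over all protein-coding genes the share under 0.1 FPKM was 35.47%. HLTF, a helicase-like factor of replication fork repair, had 0.0221, 0.0293 and 0.0276 FPKM, which corresponds to 1 fragment in each sample. TIMP3, an inhibitor of metalloproteinases, had 0.0229, 0.0608 and 0.0573 FPKM. The secreted WNT antagonists SFRP1, SFRP2, SFRP4, WIF1 and DKK2 were listed at 0, and so were SOX17, GATA5, RUNX3, CXCL12, TMEFF2 and EYA4. DKK1 had 0.0627, 0 and 0 FPKM. CDKN2A, which encodes the inhibitors p16 and p14ARF, had 0.399, 0.265 and 0.166 FPKM. IGF2 was listed at 0, with most of its exon bases shared with another gene. Methylation was not measured in these samples, and its part in these levels was not tested.

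The 9 that were present included genes of DNA repair and growth control. RASSF1, a scaffold protein that binds RAS-related proteins, had 31.9, 28.4 and 28.3 FPKM. DAPK1, a kinase linked to cell death, had 20.96, 17.9 and 19.8 FPKM. NDRG4 averaged 17.9 ± 1.097 FPKM, the helicase WRN 16.2 ± 1.396 FPKM and MGMT, which removes alkyl groups from guanine, 12.8 ± 0.829 FPKM. HIC1, SOCS1, THBS1 and DKK3 averaged 4.44, 2.500, 2.37 and 1.32 FPKM.

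The promoter sequences of RefSeq (GRCh38.p14, 250 bases before to 50 bases after the farthest upstream start of a gene) were set beside the levels of 15124 protein-coding genes, matched by symbol and chromosome. A promoter was counted as CpG-rich when its 300 bases held at least 0.6 times the CpG dinucleotides that its C and G content would give and its GC content was at least 50%. The share of CpG-rich promoters was 33.3% among genes under 0.1 FPKM, 45.1% from 0.1 to 1 FPKM, 74.2% from 1 to 10 FPKM, 86.3% from 10 to 100 FPKM and 86.5% at 100 FPKM or over, against 64.1% of all 15124. The median number of CpG dinucleotides was 7.5 in the lowest class and 28 in the highest. Genes are not independent replicates, and these shares are a description across genes.

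To show what the classes look like, 5 promoters are printed up to the base before the start, 5′ to 3′ on the strand of the gene, with CpG dinucleotides in capitals. HLTF and TIMP3 are genes of the hypermethylation list that were near 0, MUC2 is a goblet cell gene listed at 0, CDX2 is the intestinal factor that was present, and ITGB1 is one of the highest nuclear genes.
HLTF (chr3:149086534-149086783, reverse strand): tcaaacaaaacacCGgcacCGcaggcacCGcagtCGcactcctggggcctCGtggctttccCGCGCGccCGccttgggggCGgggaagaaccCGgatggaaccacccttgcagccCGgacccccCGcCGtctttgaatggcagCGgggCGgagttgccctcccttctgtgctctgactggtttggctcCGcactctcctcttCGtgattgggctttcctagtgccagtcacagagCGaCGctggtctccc
TIMP3 (chr22:32801455-32801704, forward strand): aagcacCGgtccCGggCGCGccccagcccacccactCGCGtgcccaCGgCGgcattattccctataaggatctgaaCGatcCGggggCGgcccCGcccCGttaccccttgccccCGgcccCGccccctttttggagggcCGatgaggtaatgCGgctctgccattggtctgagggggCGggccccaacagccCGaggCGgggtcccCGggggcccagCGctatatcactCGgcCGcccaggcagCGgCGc
MUC2 (chr11:1074624-1074873, forward strand): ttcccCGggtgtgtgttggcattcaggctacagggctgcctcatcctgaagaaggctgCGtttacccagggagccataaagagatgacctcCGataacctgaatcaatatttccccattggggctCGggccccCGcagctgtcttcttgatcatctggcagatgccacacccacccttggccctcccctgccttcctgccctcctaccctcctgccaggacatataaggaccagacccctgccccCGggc
CDX2 (chr13:27969316-27969565, reverse strand): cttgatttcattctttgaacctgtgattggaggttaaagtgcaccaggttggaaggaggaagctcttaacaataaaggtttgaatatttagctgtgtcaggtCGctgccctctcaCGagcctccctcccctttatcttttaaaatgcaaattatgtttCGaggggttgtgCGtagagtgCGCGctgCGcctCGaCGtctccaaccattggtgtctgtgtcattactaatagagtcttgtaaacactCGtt
ITGB1 (chr10:32958231-32958480, reverse strand): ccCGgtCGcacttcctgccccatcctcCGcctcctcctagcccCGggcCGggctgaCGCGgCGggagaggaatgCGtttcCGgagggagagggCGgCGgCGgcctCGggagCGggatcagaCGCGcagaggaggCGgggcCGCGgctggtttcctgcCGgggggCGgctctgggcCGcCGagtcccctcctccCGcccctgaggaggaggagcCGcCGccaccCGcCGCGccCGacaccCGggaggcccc

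These 250 bases hold 20 CpG dinucleotides in HLTF, 26 in TIMP3, 6 in MUC2, 10 in CDX2 and 32 in ITGB1. HLTF and TIMP3 had promoters of the CpG-rich kind, as most genes over 10 FPKM did. MUC2 had one of the CpG-poor kind that most genes under 0.1 FPKM had. Of the 48 listed genes 32 had a promoter in the table. Among the 22 of these with a mean under 0.1 FPKM, 17 were CpG-rich, and among the 6 that were present, 6 were. Over all matched genes the shares were 33.3% under 0.1 FPKM and 74.2% to 86.5% in the classes from 1 FPKM up. The list was made of genes known for hypermethylation, which affects CpG-rich promoters, so its share may be set by that choice.

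**Figure D4:**
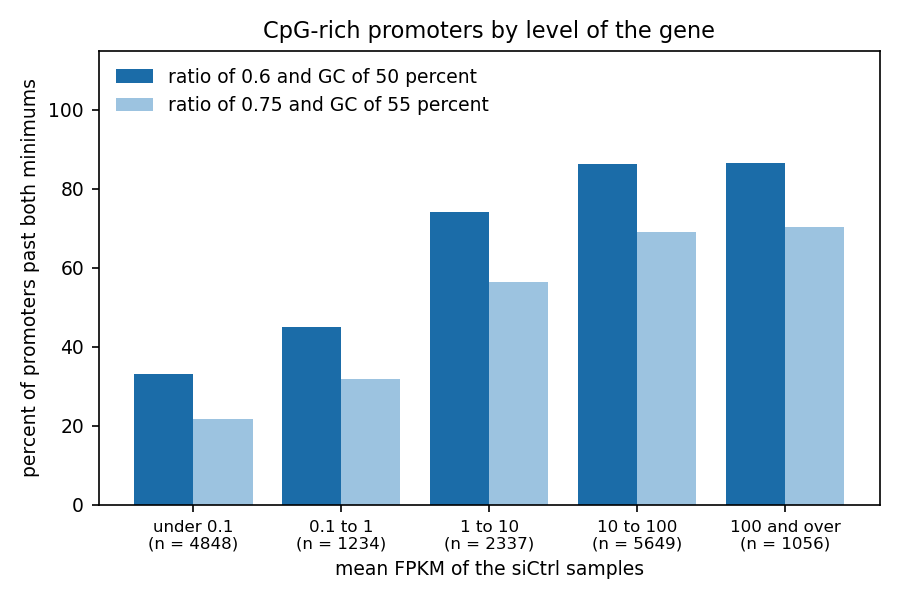
Percent of protein-coding genes with a CpG-rich promoter (300 bases, linear axis from 0) by mean FPKM of the siCtrl samples, with n genes a class. Dark bars use a CpG ratio of 0.6 and a GC content of 50% as minimums, and light bars 0.75 and 55%. Both rise from the lowest class to 10 FPKM and over, with 33.3% and 86.3% on the first rule and 21.8% and 69.0% on the second.

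Short motifs were searched on both strands of the same 300 bases. GGGCGG, the core of the GC box that SP factors bind, was in 37.3% of promoters under 0.1 FPKM and in 72.3% at 100 FPKM or over, against 59.1% of all. CCGGAAG, which ETS factors bind, was in 4.21% and 22.8% of the same classes and in 14.3% of all. TATAAA, the TATA box, was in 17.6% under 0.1 FPKM, 4.14% from 10 to 100 FPKM and 7.67% at 100 FPKM or over, against 9.68% of all. CCAAT was in 35.8% of the lowest and 39.0% of the highest class. GGGCGG and CCGGAAG each contain a CpG. Whether their shares follow the CpG content of the promoters was not tested. A match is a run of letters and not a bound site.

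Of 40 cancer-testis and germline genes 8 were present and 22 were listed at 0. Most of those present are known outside germ cells as well: the RNA-binding proteins IGF2BP2 at 157 ± 3.48 FPKM and IGF2BP3 at 46.1 ± 1.45 FPKM, the chromatin protein ATAD2 at 109 ± 2.26 FPKM, the mitotic kinases PBK at 60.7 ± 1.88 FPKM and TTK at 30.6 ± 2.54 FPKM, MAGED1 at 36.7 ± 2.45 FPKM and MAGED2 at 30.7 ± 2.496 FPKM. The remaining gene present was PRAME, with 13.96, 12.7 and 14.1 FPKM. MAGEA4, MAGEA6, MAGEC1, MAGEC2, CTAG1B, SSX1 and SSX2 were listed at 0, and MAGEA3 had 0.0368, 0 and 0 FPKM.

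Oncofetal and imprinted genes counted 8 of 20. HMGA1 is given above, and its paralog HMGA2, which is high in embryos, had 128, 129 and 121 FPKM. IGF2R, the receptor that clears IGF2, had 148, 145 and 144 FPKM. PLAGL1, MEST and the small nucleolar RNA host ZFAS1 averaged 21.8, 20.4 and 17.8 FPKM. H19 had 1.901, 0.803 and 1.296 FPKM, and AFP, GPC3, DLK1, MEG3, PEG3, PEG10 and LIN28B were listed at 0.

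Genes that drive colorectal cancer were present for 31 of 32, whatever their mutation status, which RNA levels do not show. MYC, the growth-promoting transcription factor, had 355, 359 and 369 FPKM. BAX, which promotes apoptosis, averaged 164 ± 7.17 FPKM and the receptor MET 129 ± 8.304 FPKM. EGFR, ERBB2 and ERBB3 averaged 31.5 ± 2.17 FPKM, 44.6 ± 1.12 FPKM and 21.5 ± 2.53 FPKM. NRAS and HRAS averaged 29.7 ± 0.779 FPKM and 25.8 ± 2.27 FPKM. BRAF, the kinase they activate, had 35.6, 32.1 and 33.1 FPKM. The TGF-β pathway was present from its receptors TGFBR1 at 32.8 ± 2.41 FPKM and TGFBR2 at 14.4 ± 1.29 FPKM to SMAD4 at 35.8 ± 0.698 FPKM. PIK3CA, the catalytic subunit of a lipid kinase, averaged 12.2 ± 0.977 FPKM. Of mismatch repair genes, PMS2 averaged 13.5 ± 0.479 FPKM, MSH6 28.98 ± 2.14 FPKM and MSH3 2.66 ± 0.355 FPKM. The one listed driver gene under 1 FPKM was RNF43.

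Of 34 surface antigens and drug targets 22 were present (64.7%, against 55.85% of all protein-coding genes), 12 of them at 100 FPKM or over. After ITGB1 came SLC3A2, the heavy chain of amino acid transporters, at 801 ± 42.4 FPKM, ANXA2 at 798 ± 12.1 FPKM, BSG (basigin) at 487 ± 10.4 FPKM and the ephrin receptor EPHA2 at 484 ± 13.1 FPKM. CD274, which encodes the T cell inhibitory ligand PD-L1, had 446, 440.2 and 438 FPKM, and CD276, of the same family, averaged 107 ± 6.502 FPKM. CD151 and CD9, both tetraspanins, averaged 296 and 276 FPKM. CEACAM5, CDH17 and FOLR1 were listed at 0, and CLDN18 and PROM1 were under 0.1 FPKM.

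Secreted factors counted 28 of 52 (53.8%, close to the 55.85% of all protein-coding genes). STC1, a secreted glycoprotein, had 492, 544 and 490.1 FPKM. TIMP1, an inhibitor of metalloproteinases, had 428, 481 and 467 FPKM. The growth factors MDK at 292 ± 23.8 FPKM, GDF15 at 229 ± 16.4 FPKM, TGFB1 at 147 ± 7.31 FPKM and VEGFA at 136 ± 3.63 FPKM were present too, with the matricellular protein CCN1 at 164 ± 6.32 FPKM. Among cytokines, LIF and IL11, which share the receptor subunit gp130, averaged 156 ± 7.23 FPKM and 125 ± 13.9 FPKM, and the neutrophil attractant CXCL8 had 128, 122 and 143 FPKM. IL6, of the same receptor class as LIF, had 0, 0.08196 and 0.0772 FPKM, TNF had 0, 0 and 0.0785 FPKM, and CCL2, EGF, EREG and WNT5A were listed at 0. Per length of its longest transcript VEGFA had 17.5.

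Of 41 genes of drug metabolism and transport found in the files 22 were present (53.7%, close to the 55.85% of all protein-coding genes). The metal-binding protein MT2A had 844, 1067 and 974 FPKM, and UPP1, which splits uridine, had 751, 869 and 780.1 FPKM. The glutathione transferases GSTO1 and GSTP1 averaged 377 ± 21.8 FPKM and 305 ± 21.6 FPKM. Of the genes that act on fluoropyrimidines, thymidylate synthase (TYMS) averaged 12.1 ± 0.518 FPKM, UMPS 31.6 ± 1.604 FPKM and TYMP 10.9 ± 0.538 FPKM, and DPYD, which degrades them, was listed at 0. TOP1, the target of irinotecan, averaged 74.8 ± 2.303 FPKM. The efflux pump ABCC1 averaged 31.7 ± 1.28 FPKM, ABCG2 1.70 FPKM, and ABCB1 had 0.0279, 0 and 0 FPKM.

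Of 30 interferon-stimulated and RNA sensing genes 18 were present (60%, close to the 55.85% of all protein-coding genes). BST2 (tetherin) had 202, 201 and 222 FPKM. IFITM2, ISG15 and IFITM3 averaged 86.98 ± 1.86 FPKM, 64.4 ± 2.12 FPKM and 52.7 ± 3.201 FPKM. OAS3, an oligoadenylate synthetase, averaged 43.3 ± 0.811 FPKM, EIF2AK2, the kinase PKR that senses double-stranded RNA, 33.8 ± 1.43 FPKM and MX1 26.7 ± 2.06 FPKM. The sensors IFIH1, DDX58 and TLR3 averaged 4.34, 3.01 and 1.84 FPKM. IFNB1 and IFNL1, which encode interferons, were listed at 0.

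The genes the study names were all present. ANP32B, a histone chaperone with acidic and leucine-rich parts, had 429, 466 and 452 FPKM and was the highest of the 3 ANP32 genes named, with 159 ± 5.18 FPKM for ANP32E and 136 ± 0.584 FPKM for ANP32A. PARP1, the main poly(ADP-ribose) polymerase, had 233, 235 and 237 FPKM, PARP2 had 41.9, 37.99 and 39.4 FPKM, and HPF1, the cofactor that directs both to serine, had 23.1, 23.7 and 23.5 FPKM. The ranges of these 3 did not overlap, and the order PARP1, PARP2, HPF1 was the same per length of the longest transcript, with 68.7, 19.9 and 14.4. ACTB, the reference gene, averaged 1414 ± 50.5 FPKM.

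All 20 housekeeping and reference genes were present, over a wide range of levels. EEF1A1, RPLP0, RPS18, RPL13A and ACTB exceeded 1000 FPKM, and PPIA was at 608 ± 38.2 FPKM, HPRT1 at 97.4 ± 2.82 FPKM and TBP at 20.2 ± 1.64 FPKM. B2M, the light chain of class I antigen presentation, had 2.02, 2.75 and 2.397 FPKM. SDHA, a subunit of succinate dehydrogenase, had 1.27, 1.54 and 1.45 FPKM, with 0% of its exon bases shared with another gene. Whether levels this low for B2M and SDHA come from the cells or from the counting of fragments was not tested, so both are uncertain. TUBB, a β-tubulin, had 12.1, 32.4 and 33.9 FPKM, so that siCtrl 1 was below both other samples.

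Of 51 rRNA-related genes found in the files 46 were present. Of these, 38 lay within 2-fold, and 8, the mitochondrial rRNAs and 6 factors of rRNA processing or ribosome assembly, were over 2-fold higher in siCtrl 1 than in both siCtrl 2 and siCtrl 3. MT-RNR2, the large mitochondrial rRNA, had 1431, 96.4 and 89.1 FPKM. MT-RNR1, the small one, had 376, 26.7 and 24.6 FPKM. FBL (fibrillarin), which methylates rRNA, had 208, 20.4 and 16.3 FPKM. In each, siCtrl 2 and siCtrl 3 lay close together and siCtrl 1 was over 11 times their mean. EBNA1BP2, a factor of the large ribosomal subunit, had 99.00, 5.73 and 5.18 FPKM. TSR1 had 69.4, 4.75 and 5.42 FPKM, ESF1 44.9, 3.22 and 3.57 FPKM and TSR3 38.5, 2.03 and 2.902 FPKM. TSR2 had 7.34, 1.18 and 1.34 FPKM. The baseline levels of these 8 genes are therefore uncertain, and their means describe no sample. The other 38 had coefficients of variation of 1.32% to 21.4%, with a median of 3.97%, among them NPM1 (nucleophosmin) at 1395 ± 64.5 FPKM, NCL (nucleolin) at 736 ± 24.6 FPKM, NOP58 at 212 ± 7.15 FPKM, NOP56 at 178 ± 8.73 FPKM, DKC1 (dyskerin) at 173 ± 6.82 FPKM and UBTF, a factor of RNA polymerase I, at 51.9 ± 0.686 FPKM. NOP56 and NOP58, which form a complex with FBL, thus differed little between the samples. RN7SK, RMRP, RPPH1, RN7SL2 and RNA5S1 were listed at 0.

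**Figure D5:**
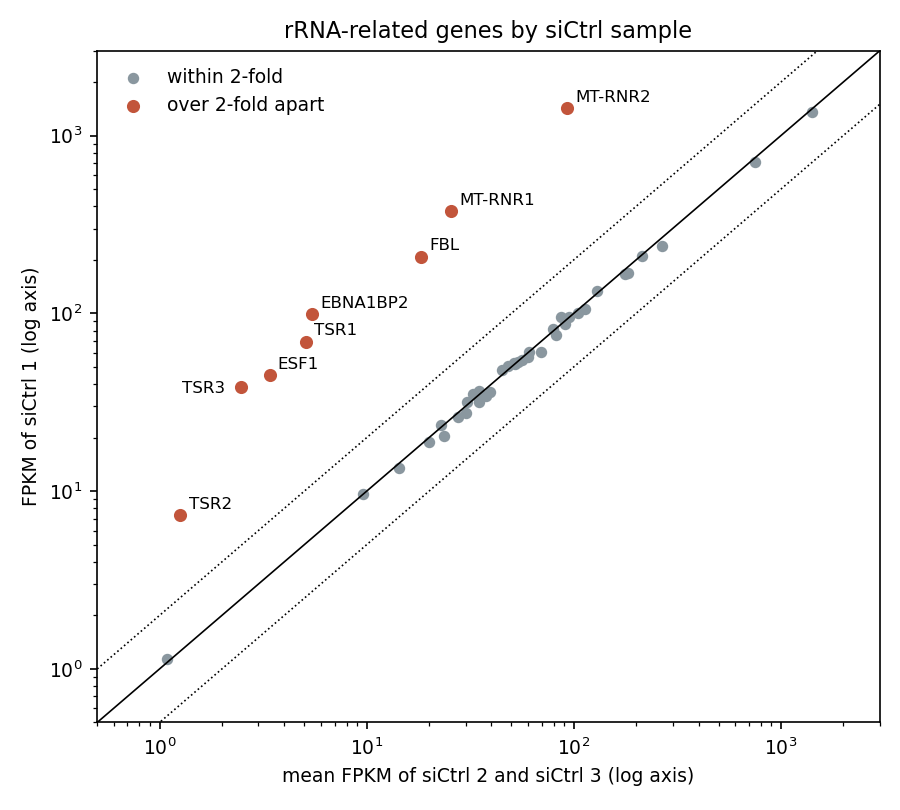
FPKM of 46 rRNA-related genes in siCtrl 1 against the mean of siCtrl 2 and siCtrl 3 (both log axes), with lines at equality (solid) and at 2-fold (dotted). The 8 red genes lie above the upper dotted line, from TSR2 (7.34 in siCtrl 1) to MT-RNR2 (1431 in siCtrl 1), and the 38 grey genes lie between the dotted lines.

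Of all genes averaging 5 FPKM or more, 19 were over 2-fold apart between siCtrl 1 and both other samples, 14 higher in siCtrl 1 and 5 lower. Besides 7 genes of the list, UTP23, FTSJ3 and FCF1, which also act in rRNA processing, were higher, with 86.3, 6.34 and 7.15 FPKM, 117, 12.9 and 13.7 FPKM and 35.02, 13.99 and 13.1 FPKM. The others that were higher were the short RNAs MIR5587, MIR573, SNORA2A and SNORA65. Lower in siCtrl 1 were TUBB, GPANK1 with 4.27, 15.4 and 17.1 FPKM, and the short RNAs SNORA73B, SNORD104 and MIR4482. TUBB and GPANK1 both lie on chromosome 6. Among the 9442 protein-coding genes of at least 5 FPKM, 10 stood apart in siCtrl 1 by this rule, 1 in siCtrl 2 and 1 in siCtrl 3. Among all 14041 genes present the counts were 243 for siCtrl 1, 289 for siCtrl 2 and 276 for siCtrl 3. Of these, 119, 123 and 148 fell on the 449 entries that have no transcript of 200 bases or more. By number, siCtrl 1 thus stood apart among the protein-coding genes of at least 5 FPKM, but not among all genes present. Library preparation, RNA handling and culture of siCtrl 1 are not described separately, and their part in these differences was not tested.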

How the data were processed

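Gene levels were taken from the deposited tables of the 3 siCtrl samples. The authors made these FPKM values from paired-end sequencing, and the submitters' processing notes list Bowtie2, RSEM and the build GRCh38. For versions, filters and gene length, nothing is given in the sources used here. Methods and the sample labels name different RNA kits and sequencing platforms. Symbols came from the files, and biotypes, coordinates, transcript lengths and exon sharing from GENCODE 29 (58453 of 60671 Ensembl entries matched). The 533 entries with no Ensembl ID were counted but not named. Total fragments (14304093 to 18987041) were recovered from the FPKM that genes with 1 fragment take at their mean transcript length, a step tested on simulated data. Since no groups were compared, no test was run: levels are given as 3 values, or as mean and SD. Gene lists, members and named genes were chosen with earlier results of these data known. Named genes were, by rule, the highest genes, list members (the 12 highest, those under 0.1 FPKM and those defining a cell type), the genes the study names, genes apart in siCtrl 1, the least and most variable genes of at least 10 FPKM and genes at the threshold. Others are noted where named. Some genes that the rule takes in are not reported here. Fragments shared between gene copies or overlapping genes make such levels uncertain. Alternatives were other thresholds (0.5 and 2 FPKM), TPM, median-of-ratios scaling, leaving out each sample, share of fragments (with mean transcript length), a pseudocount of 1 FPKM, other CpG minimums and, added after the values were seen, levels per longest transcript and genes with under 10% of shared exon bases. Python 3.11.15, numpy 2.4.6, pandas 2.3.3 and matplotlib 3.10.9 were used.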

Additional observations from a re-analysis of the deposited data

How the results depend on the processing

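Of 225 alternative values for 32 results, 192 stayed within 1.5 times the count or 1 SD of the value in the report. For the shares of summed FPKM, leaving out 1 sample cannot shift the mean by 1 SD, so those values could not count as moved. The number of genes present was 12131 at 2 FPKM, 16278 at 0.5 FPKM, 15213 by TPM, 14042 after median-of-ratios scaling, 14011 to 14108 when 1 sample was left out, and 13020 per longest transcript. With genes under 10% of shared exon bases alone it was 11108. Lists that moved were short or near the threshold. Goblet genes (2) counted 4 at 0.5 FPKM and by TPM, 1 at 2 FPKM and 0 per longest transcript. Immune markers (1) counted 2 at 0.5 FPKM and by TPM, 0 at 2 FPKM, and 1 to 2 when 1 sample was left out, with 2 without siCtrl replicate 3, where CD4 also passed. Endothelial, fibroblast and muscle markers (4) counted 2 at 2 FPKM and when every sample had to reach 1 FPKM, and 1 per longest transcript. Neural and germ cell markers (2) counted 1 at 2 FPKM and per longest transcript, and mesenchymal genes (11) counted 7 per longest transcript. As a share of fragments, ribosomal proteins held 6.87%, mitochondrially encoded proteins 4.14% and the 10 highest genes 5.85%, against 11.4%, 5.66% and 7.32% of the summed FPKM. Without mitochondrial genes and genes under 300 exon bases, ribosomal proteins held 12.2% and the 10 highest genes 3.45%. The 243 genes apart in siCtrl 1 fell to 103 with a pseudocount of 1 FPKM and to 19 at a mean of at least 5 FPKM. With the stricter CpG minimums the shares by level class were 21.8%, 31.8%, 56.4%, 69.0% and 70.3%. With classes from siCtrl replicate 1 alone the class from 0.1 to 1 FPKM had 44.6%. From siCtrl replicate 2 alone the shares were 33.5% under 0.1 FPKM, 74.7% from 1 to 10, 86.3% from 10 to 100 and 86.1% at 100 or over, and from siCtrl replicate 3 alone 33.5% and 44.4% in the 2 lowest classes. No paired analysis was possible because the results come from no test and from 1 group. Depth limits genes under 0.1 FPKM, whose median coefficient of variation was 173%.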
